A study of Mus musculus with 21 samples.

Results

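Silencing Hsp90aa1 was set directly against silencing Hsp90ab1 in CAF1, a line of fibroblasts taken from mammary carcinomas of MMTV-PyMT mice, a model whose mammary tumours are driven by the polyoma middle T antigen. The libraries were chosen by their labels: 3 CAF libraries with the Hsp90aa1 siRNA pool (siHsp90aa1) and 3 with the Hsp90ab1 siRNA pool (siHsp90ab1), 6 of the 21 libraries in the series. All 6 received vehicle, as did 3 CAF libraries with control siRNA (siCtr) that show where each knockdown lay relative to control. The same pair of siRNA pools was also given to NF1, a fibroblast line from healthy mammary tissue of the FVB/n strain, in 3 libraries each, but with TGFb1 at 5 ng/mL in the medium. Line and cytokine therefore differ together between CAF and NF and cannot be told apart. Each siRNA was used at 100 nM, and RNA was collected 48 h after transfection. Replicates carry the numbers 1 to 3 in the labels, which do not say whether these were separate cultures or animals, so the p-values measure only the spread between these libraries, which may be technical.

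HSP90 is an abundant chaperone of the cytosol that holds kinases, steroid receptors and other client proteins in a shape from which they can be activated, with co-chaperones that load clients, set its ATPase cycle or release its products. Mammals carry a pair of cytosolic isoforms from separate genes: HSP90-alpha, from Hsp90aa1, which heat shock strongly induces, and HSP90-beta, from Hsp90ab1, which most cells make constitutively at a higher level. Carcinoma-associated fibroblasts secrete and remodel extracellular matrix, contract, and release growth factors and chemokines.

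The coding sequences of the targets are shown because each siRNA pool has to tell them apart. In GENCODE vM21, Hsp90aa1-201 (GRCm38, chr12:110690605-110702728, minus strand) has 2199 coding bases and Hsp90ab1-201 (GRCm38, chr17:45567775-45573271, minus strand) has 2172. Over 2171 aligned base pairs, 1662 were identical, which is 76.6%. The longest run shared without a mismatch was 33 bases, and 20 of the 2181 different 19-base words of Hsp90aa1, the length of an siRNA core, also occurred in Hsp90ab1. A stretch of 90 aligned bases that holds the longest shared run is given 5′ to 3′, in coding orientation, with the 11 differing bases in capitals. The sequences of the siRNA pools were not used here.
Hsp90aa1 coding bases 40 to 129: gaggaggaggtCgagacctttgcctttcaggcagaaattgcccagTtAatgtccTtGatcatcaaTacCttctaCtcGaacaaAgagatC
Hsp90ab1 coding bases 25 to 114: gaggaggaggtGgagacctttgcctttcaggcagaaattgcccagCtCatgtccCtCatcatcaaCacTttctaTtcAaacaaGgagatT

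Levels are given as TMM-normalised CPM, library counts scaled to a common size, in the order of libraries 1, 2 and 3. Hsp90aa1 (ENSMUSG00000021270) had 122, 85.9 and 58.1 CPM with siHsp90aa1, against 479, 459 and 324 CPM with siHsp90ab1 and 995, 926 and 726 CPM with siCtr. All 3 siHsp90aa1 libraries lay below all siHsp90ab1 libraries, and these in turn lay below every control. With siHsp90ab1 the level of Hsp90aa1 was 47.6% of control, a log2 fold change of -1.07 ± 0.30. This did not pass the test (adjusted p = 0.123, and 0.0875 with the replicate block). In the separate NF libraries with TGFb1, Hsp90aa1 had 253, 297 and 327 CPM with siHsp90ab1. With siCtr and TGFb1 it had 671, 606 and 543 CPM there, so that siHsp90ab1 stood at 48.1% of control. This NF difference was not tested. The direct log2 fold change in CAF, siHsp90aa1 over siHsp90ab1, was -2.24 ± 0.31 (SE, adjusted p = 8.36e-05, edgeR quasi-likelihood test with Benjamini-Hochberg adjustment). It was smaller than the -3.31 of siHsp90aa1 over siCtr. Hsp90ab1 (ENSMUSG00000023944) had 2113, 2030 and 2041 CPM with siHsp90aa1, against 315, 246 and 166 CPM with siHsp90ab1 and 2536, 2395 and 2370 CPM with siCtr. The siHsp90ab1 libraries stood far below both other groups, and the direct log2 fold change was 3.09 ± 0.21 (adjusted p = 1.23e-07).

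The pools thus left the cells with different amounts of total cytosolic HSP90 message. In the authors' TPM, which are scaled by transcript length, the sum of both genes was 1722 ± 40.9 with siHsp90aa1, 573 ± 126 with siHsp90ab1 and 2809 ± 188 with siCtr (SD, n = 3 each), that is 61.3% and 20.4% of the control. Hsp90ab1 made up 95.9% of that sum with siHsp90aa1, 36.4% with siHsp90ab1 and 73.1% with siCtr. The other HSP90 genes were not called in the direct comparison. Hsp90b1, the paralogue of the endoplasmic reticulum, had a log2 fold change of -0.17 ± 0.14 (adjusted p = 0.409), and Trap1, the mitochondrial paralogue, 0.14 ± 0.10 (adjusted p = 0.327).

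**Figure D1:**
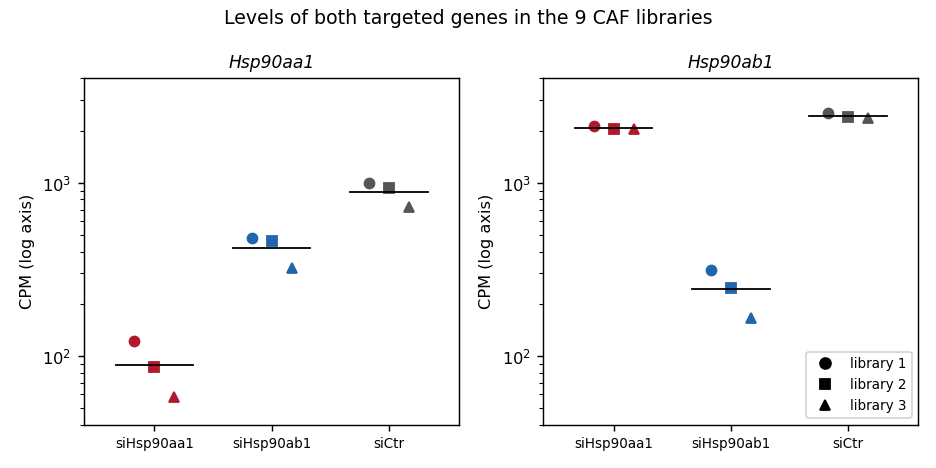
Hsp90aa1 (left) and Hsp90ab1 (right) in the 9 CAF libraries, in TMM-normalised CPM on a log axis. Circles, squares and triangles are libraries 1, 2 and 3 and bars are group means; Hsp90aa1 falls to a mean of 88.7 CPM with its own pool and stands at 420 CPM with siHsp90ab1, whereas Hsp90ab1 stands at 2061 CPM with siHsp90aa1 and 242 CPM with its own pool.

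The 6 libraries held 40899195 to 68737738 counts each. The CAF libraries numbered 3 stood apart from those numbered 1 and 2 in all 3 groups: the chi-square per degree of freedom between replicates was 17.9 to 24.8 for libraries 1 against 2 and 41.6 to 154 for either against library 3. On the first principal component of the 9 CAF libraries (63.7% of the variance), siHsp90aa1 lay at 14.6, 19.9 and 38.2, siHsp90ab1 at -24.0, -18.7 and 5.10 and siCtr at -24.9, -17.7 and 7.53. Library 3 was shifted the same way in each group, and siHsp90aa1 lay above its same-numbered partner in every case. Several results, though not all, are therefore also given without the CAF libraries numbered 3. Markers of epithelial, endothelial, immune, pericyte, adipocyte and glial cells each summed to at most 15.5 CPM in any of the 6 libraries, against 44316 to 61918 CPM for the fibroblast markers. Of the fibroblast markers, Lum and Fap were low, at 0.227 to 3.11 CPM. Pdgfra (0.44, adjusted p = 0.0210) and Pdgfrb (0.35, adjusted p = 0.0445) were called higher with siHsp90aa1, calls that were lost without siHsp90aa1 library 1 or siHsp90ab1 library 2 for Pdgfra and without any library but siHsp90ab1 library 3 for Pdgfrb. Of the other markers tested, only Cdh5, an endothelial cadherin, was called, at 0.0160 to 0.0761 CPM with siHsp90aa1 against 0.117 to 1.06 CPM with siHsp90ab1.

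Of 15230 genes tested, 4006 differed between the knockdowns (26.3%), 1988 higher with siHsp90aa1 (13.1%) and 2018 lower (13.3%). More than 2-fold differences were fewer, 208 genes higher (1.37%) and 314 lower (2.06%), and the median over all genes was 0.02 on the log2 scale. Without the libraries numbered 3, 3404 genes were called, 1564 higher (10.1%) and 1840 lower (11.9%). The count fell by more than 1.5-fold without siHsp90ab1 library 1 (2492), siHsp90ab1 library 2 (2478) or siHsp90aa1 library 3 (2506). In 3995 of the 4006 called genes all 3 same-numbered pairs differed in the same direction. The calls came from the same libraries, so this agreement follows largely from the selection and is not separate support. The replicate numbers were taken to pair these libraries, but calls, SE and p-values in the text come from the fit without this pairing unless stated. A gene given as not called or marginal may therefore pass when the pairing is used. Fits with libraries left out did not use the pairing either, so leaving out 1 library broke a same-numbered pair. With the number as a block, the fit called 2783 genes higher (18.3%) and 2629 lower (17.3%), and a blocked fit of the 9 CAF libraries alone called 7878 genes, 3875 higher and 4003 lower.

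Set beside control, most of the contrast lay on the siHsp90aa1 side, although the 3 comparisons share libraries and are not independent. With siHsp90aa1, 3867 genes differed from siCtr (25.4%), 1898 of them higher (12.5%) and 1969 lower (12.9%). The count became 2460 without siCtr library 2, 2524 without siHsp90aa1 library 3 and 3342 without all CAF libraries numbered 3. With siHsp90ab1, 137 genes differed from siCtr (0.9%), 71 higher (0.466%) and 66 lower (0.433%), with 1341 at an unadjusted p under 0.05 and 322 in DESeq2. The count for siHsp90ab1 depended strongly on the fit, from 5 with only the libraries compared to 30 without the libraries numbered 3, 360 with the replicate block and 2156 in the blocked fit of the 9 CAF libraries, and it was 44 to 80 without any 1 library but siCtr library 1 (102). The counts that follow rest on it. Of the 4006 directly called genes, 2845 (71.0%) were also called for siHsp90aa1 against control and not for siHsp90ab1, and 57 the other way round. Another 1084 were called against control for neither, 15 were called for both in the same direction and 5 for both in opposite directions.

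Dag1 was the clearest of those 5. It encodes dystroglycan, the receptor that ties the cytoskeleton to laminin in basement membranes. Dag1 had 430, 384 and 392 CPM with siHsp90aa1, against 147, 130 and 140 CPM with siHsp90ab1 and 246, 211 and 254 CPM with siCtr. The 3 groups did not overlap, and control lay between the knockdowns. Its direct log2 fold change was 1.53 ± 0.10 (adjusted p = 1.23e-07), made of 0.76 over control with siHsp90aa1 (adjusted p = 6.08e-05) and -0.77 with siHsp90ab1 (adjusted p = 0.000731). Without the CAF libraries numbered 3 the differences from control were 0.82 (adjusted p = 0.000548) and -0.72 (adjusted p = 0.0381). The other genes of this kind were Gosr1, a SNARE of the Golgi (0.61), the sialomucin Cd164 (0.70), Tgfbr3, the TGFb co-receptor betaglycan (0.89), and Mfhas1 (0.90), named here after their values were seen. Leaving out single libraries ended at least 1 call against control for each of these 4. This happened for Gosr1 without siHsp90aa1 library 1 or siCtr library 2 (adjusted p = 0.0561 and 0.0605) and for Cd164 without any of the 6 siHsp90ab1 and siCtr libraries (up to 0.203). It happened for Mfhas1 without siHsp90ab1 library 2 or 3 or any siCtr library (up to 0.222) and for Tgfbr3 without siHsp90aa1 library 1 or 2, siHsp90ab1 library 2 or 3 or any siCtr library (up to 0.151).

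In a smaller set siHsp90ab1 was the knockdown that stood apart from control. Ppard, the nuclear receptor PPAR-delta, had 89.8, 81.3 and 91.4 CPM with siHsp90aa1, against 43.9, 40.5 and 37.6 CPM with siHsp90ab1 and 73.9, 72.7 and 77.0 CPM with siCtr. The siHsp90ab1 libraries lay below both other groups, and the direct log2 fold change was 1.11 ± 0.09 (adjusted p = 4.40e-07). Rnf7, a RING subunit of cullin ubiquitin ligases, followed the same pattern at 52.8, 51.6 and 50.5 CPM with siHsp90aa1, 33.6, 31.4 and 27.6 CPM with siHsp90ab1 and 51.2, 53.2 and 47.2 CPM with siCtr (0.74 ± 0.07, adjusted p = 3.90e-06). Becn1, a core autophagy gene, was lower with siHsp90ab1 as well, with a direct log2 fold change of 0.61 ± 0.06 (adjusted p = 6.41e-06). These genes were picked after their values were seen.

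Where both knockdowns moved a gene the same way from control, the direct comparison often removed it: 66 genes were called against control in both with 1 sign, and 51 of them were not called directly. Tubg1, the gamma-tubulin of the centrosome, was such a gene, at 68.6, 62.3 and 63.6 CPM with siHsp90aa1, 64.6, 63.4 and 60.5 CPM with siHsp90ab1 and 95.3, 94.1 and 97.9 CPM with siCtr. Both knockdowns lay below control and overlapped each other, with a direct log2 fold change of 0.05 ± 0.07 (adjusted p = 0.672). Lamc1, the gamma-1 chain of laminin, stood above control in both and further above it with siHsp90aa1, at 701, 663 and 620 CPM with siHsp90aa1, 461, 484 and 449 CPM with siHsp90ab1 and 306, 279 and 260 CPM with siCtr (direct log2 fold change 0.51 ± 0.09, adjusted p = 0.000697).

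DNA replication genes separated the knockdowns almost without exception. All 32 had a lower level with siHsp90aa1 than with siHsp90ab1, 30 of them were called lower and 0 higher, and the median log2 fold change was -0.77, against 0.02 over all genes and 13.3% of all genes called lower. In 31 of the 32 the 3 siHsp90aa1 libraries lay below all 3 siHsp90ab1 libraries, which was so for 20.2% of all genes. The genes not called were Gins3 and Gins4, subunits of the replicative helicase. Leaving out the libraries numbered 3 again gave 30 lower calls and a median of -0.77, and leaving out any 1 library gave 26 to 30.

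Mcm3, a subunit of the ring-shaped helicase that unwinds DNA at the fork, had 40.6, 42.1 and 24.0 CPM with siHsp90aa1, against 101, 103 and 76.1 CPM with siHsp90ab1 and 132, 129 and 90.5 CPM with siCtr. The siHsp90aa1 libraries lay far below both other groups, and the direct log2 fold change was -1.39 ± 0.18 (adjusted p = 4.02e-05). The siHsp90ab1 libraries overlapped the controls as a group, but each lay below its same-numbered control. Pcna, the sliding clamp of the DNA polymerases, had 76.9, 79.8 and 57.4 CPM with siHsp90aa1, against 165, 162 and 129 CPM with siHsp90ab1 (-1.09 ± 0.13, adjusted p = 2.71e-05). The clamp loader subunits Rfc5 (-0.99 ± 0.15, adjusted p = 0.000156) and Rfc3 (-0.67 ± 0.10, adjusted p = 0.000181) were lower too. Against control, 31 of the 32 genes were called lower with siHsp90aa1 (median -0.96). With siHsp90ab1, 1 was called lower, and 5 with the replicate block, at a median of -0.25.

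Promoters of replication genes often carry a site for E2F, the transcription factor family that RB holds in check. The letters TTTNNCGC, searched on both strands in the 250 bases before the start of each gene in RefSeq (GRCm38.p6), occurred in 7 of the 24 replication promoters that could be matched (29.2%), against 4.41% of all 27025 promoters and 7.17% of the 10426 promoters of tested genes. A match is a description of the letters and not evidence of a bound factor. Stretches of 80 bases around the match are printed 5′ to 3′ on the gene's strand, with the match in capitals (overlapping matches run together), for 4 replication genes called lower with siHsp90aa1. Their log2 fold changes were -0.67 for Rfc3, -0.85 for Mcm5 (adjusted p = 0.000324), -0.75 for Mcm6 (adjusted p = 0.000896) and -0.67 for Pola1, the catalytic subunit of the primase polymerase (adjusted p = 0.00134).
Rfc3, chr5:151651209-151651288, minus strand: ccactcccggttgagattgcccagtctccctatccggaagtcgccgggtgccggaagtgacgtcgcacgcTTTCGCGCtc
Mcm5, chr8:75109324-75109403, plus strand: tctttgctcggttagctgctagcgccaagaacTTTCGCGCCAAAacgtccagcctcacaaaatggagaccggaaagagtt
Mcm6, chr1:128359709-128359788, minus strand: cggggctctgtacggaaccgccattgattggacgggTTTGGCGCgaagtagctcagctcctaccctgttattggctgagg
Pola1, chrX:93632250-93632329, minus strand: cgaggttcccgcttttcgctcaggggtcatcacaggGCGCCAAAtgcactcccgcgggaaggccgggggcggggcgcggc

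Mitotic genes moved in the same direction. All 25 had a negative log2 fold change, with a median of -0.62. Of these 21 were called lower and 0 higher, where 13.3% of all genes were called lower. Leaving out the libraries numbered 3 again gave 21 lower calls, and the replicate block gave 24. Birc5, the survivin subunit of the chromosomal passenger complex, had 23, 23.8 and 14.7 CPM with siHsp90aa1, against 55.7, 55.7 and 46.1 CPM with siHsp90ab1 and 67.5, 66.0 and 48.8 CPM with siCtr. There was no overlap between the knockdowns (direct log2 fold change -1.35 ± 0.19, adjusted p = 0.000101). As a group siHsp90ab1 overlapped control, but each of its libraries lay below the same-numbered control. Ccna2, the cyclin of S phase and mitotic entry, differed by -0.93 ± 0.14 (adjusted p = 0.000149), Cdc20, an activator of the anaphase-promoting complex, by -0.65 ± 0.10 (adjusted p = 0.000199) and the checkpoint kinase gene Bub1b by -0.64 ± 0.10 (adjusted p = 0.000240). In bulk libraries, fewer cycling cells and less of these RNAs per cell cannot be told apart.

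**Figure D2:**
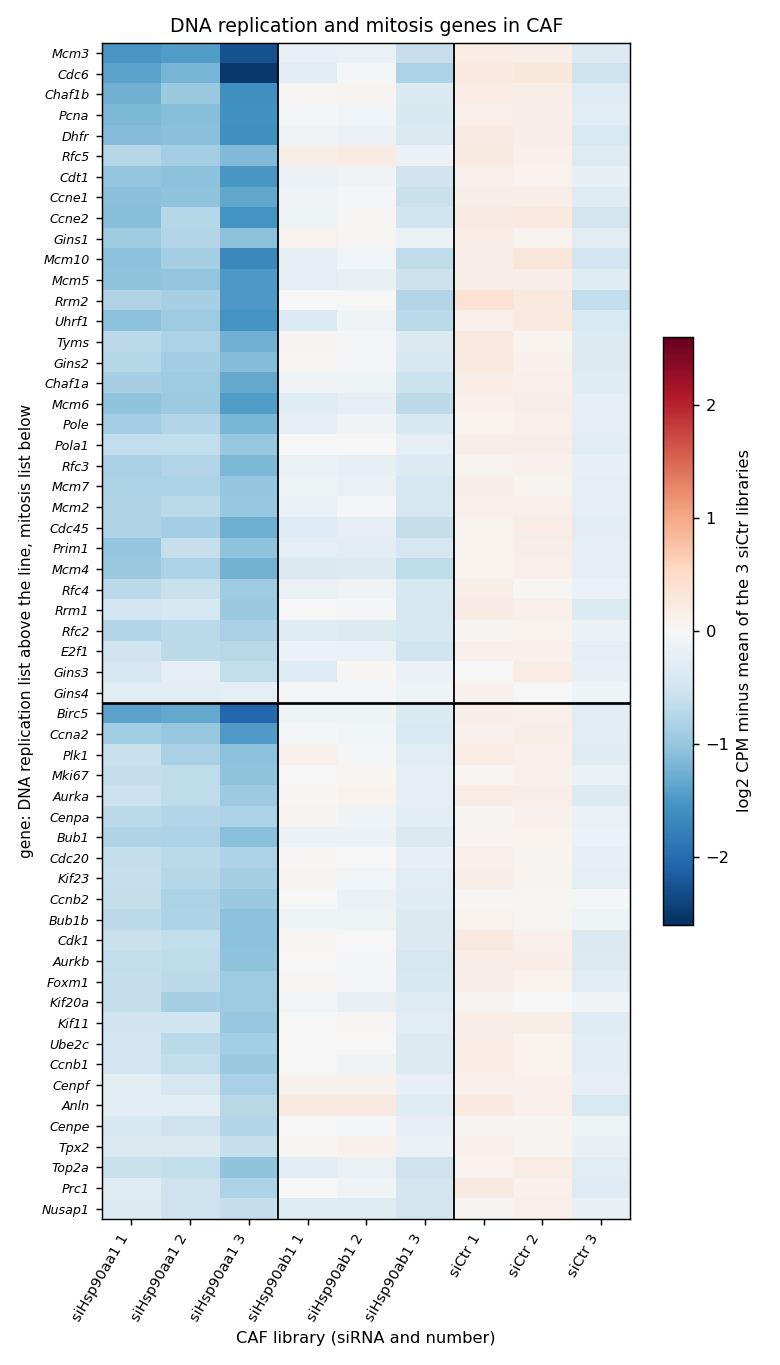
Each row is a gene of the DNA replication list (above the line) or the mitosis list (below it), and each column 1 of the 9 CAF libraries; colour is log2 CPM minus the mean of the 3 siCtr libraries, blue for lower. The siHsp90aa1 columns are blue in nearly every row, most of all library 3, while the siHsp90ab1 columns lie nearer to the controls. The list medians were -0.77 and -0.62 for siHsp90aa1 over siHsp90ab1, and -0.25 and -0.13 for siHsp90ab1 over siCtr.

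Of the genes read out from ERK signalling and growth factor input, 23 had a negative log2 fold change and 7 a positive one. Most were not called. Of 30 tested, 8 were called lower with siHsp90aa1 and 3 higher, where 13.3% of all genes were called lower and 13.1% higher. The median log2 fold change was -0.63, and the replicate block gave 16 lower and 4 higher. The 8 became 4 without siHsp90ab1 library 1, siHsp90ab1 library 2 or siHsp90aa1 library 3, and 11 without all CAF libraries numbered 3, and the 3 higher became 0 or 1 without siHsp90aa1 library 1, siHsp90ab1 library 1 or siHsp90ab1 library 2. Ccnd1, the cyclin that starts the cycle with Cdk4 or Cdk6, had 125, 125 and 72.4 CPM with siHsp90aa1, against 390, 389 and 196 CPM with siHsp90ab1 and 370, 333 and 151 CPM with siCtr. Every siHsp90aa1 library lay below every other, and library 3 was the lowest of each group (-1.59 ± 0.30, adjusted p = 0.00105). The ETS factor Etv1 had 3.59, 3.83 and 1.81 CPM with siHsp90aa1, against 17.6, 15.2 and 8.15 CPM with siHsp90ab1 (-2.14 ± 0.33, adjusted p = 0.000181). Dusp4, a phosphatase that ERK induces and that acts on it in return, had 10.0, 8.01 and 4.69 CPM with siHsp90aa1, against 42.3, 36.5 and 15 CPM with siHsp90ab1 (-2.03 ± 0.42, adjusted p = 0.00189).

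Protein kinases known as HSP90 clients did not move as a group at the RNA level. Of 30, 12 were called higher with siHsp90aa1 and 7 lower, where 13.1% of all genes were called higher and 13.3% lower. The median log2 fold change was 0.07, and the 12 became 5 or 6 without siHsp90ab1 library 1, siHsp90ab1 library 2 or siHsp90aa1 library 3. Met, the hepatocyte growth factor receptor, fell most, to 21.8, 18.0 and 7.13 CPM with siHsp90aa1, against 99.0, 84.5 and 37.4 CPM with siHsp90ab1 and 87.6, 64.9 and 27.1 CPM with siCtr (-2.23 ± 0.40, adjusted p = 0.000605). Tgfbr1, the type I TGFb receptor, had 26.5, 28.9 and 22 CPM with siHsp90aa1, against 52.4, 56.9 and 54.2 CPM with siHsp90ab1 and 48.7, 56.9 and 51.0 CPM with siCtr. The siHsp90aa1 libraries lay below all others, and the other groups overlapped (-1.08 ± 0.12, adjusted p = 1.74e-05). Cdk4 was lower by -0.51 ± 0.07 (adjusted p = 5.19e-05), while the kinases of the NF-kB pathway Chuk (0.40 ± 0.06, adjusted p = 0.000239) and Ikbkb (0.38 ± 0.06, adjusted p = 0.000285) were higher. These are RNA levels and say nothing of the client proteins. Of 5 steroid receptor and Ahr genes tested, 2 were called higher: Ahr, the aryl hydrocarbon receptor (0.82 ± 0.15, adjusted p = 0.000928), and Esr1, the oestrogen receptor (0.62 ± 0.17, adjusted p = 0.0113), whose call was lost without siHsp90ab1 library 1, siHsp90ab1 library 2 or siHsp90aa1 library 3.

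Of 23 co-chaperones of HSP90 tested, 9 were called lower with siHsp90aa1 than with siHsp90ab1 and 0 higher, where 13.3% of all genes were called lower. The other 14 were not called, 6 of the 23 had a positive log2 fold change, and the median was -0.13. There were 9 lower calls again without the libraries numbered 3. Fkbp4, the immunophilin FKBP52 that accompanies steroid receptors, had 139, 136 and 129 CPM with siHsp90aa1, against 281, 287 and 252 CPM with siHsp90ab1 and 230, 221 and 194 CPM with siCtr. The groups did not overlap, with siHsp90aa1 below control and siHsp90ab1 above it (-1.02 ± 0.09, adjusted p = 1.26e-06). The ATPase activators Ahsa1 (-0.41 ± 0.09, adjusted p = 0.00245) and Ahsa2 (-0.45 ± 0.08, adjusted p = 0.000651) and Ptges3, the co-chaperone p23 (-0.47 ± 0.08, adjusted p = 0.000473), were lower. Of 19 heat shock factor genes and targets, 4 were called lower and 2 higher, and the 2 became 0 or 1 without any library but siHsp90aa1 library 2. Hsph1, an HSP110 nucleotide exchange factor, had 243, 189 and 147 CPM with siHsp90aa1, against 430, 378 and 308 CPM with siHsp90ab1 and 323, 271 and 229 CPM with siCtr. The knockdowns did not overlap (-0.94 ± 0.19, adjusted p = 0.00137). Control overlapped both as a group, but each control lay between the knockdown libraries of its number. Dnajb1, an HSP40, was lower by -0.62 ± 0.10 (adjusted p = 0.000358).

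Other lists of the protein quality machinery differed in their counts, where 13.1% of all genes were called higher and 13.3% lower. Of 31 proteasome subunits, 16 were called lower with siHsp90aa1 and 1 higher (median log2 fold change -0.22, and 12 lower and 0 higher without the libraries numbered 3), the 1 higher call being lost without any library but siHsp90aa1 library 1. Psmd2, a scaffold of the base of the proteasome's cap, had 152, 144 and 121 CPM with siHsp90aa1, against 305, 297 and 295 CPM with siHsp90ab1 and 302, 299 and 293 CPM with siCtr. The siHsp90aa1 group stood alone below the other groups, which overlapped (-1.11 ± 0.09, adjusted p = 4.40e-07). Psmd6 was next (-0.86 ± 0.11, adjusted p = 4.24e-05), and the other called subunits differed by less. Of 13 chaperonin and prefoldin genes, which fold actin and tubulin, 5 were called lower and 0 higher, led by the prefoldin subunit Vbp1 at 21.6, 21 and 18.0 CPM with siHsp90aa1, against 43.4, 43.8 and 42.6 CPM with siHsp90ab1 (-1.10 ± 0.08, adjusted p = 1.23e-07). Of 21 endoplasmic reticulum chaperones and stress genes, 4 were higher and 1 lower. The lower was Pdia3, a disulphide isomerase of glycoprotein folding, at 351, 305 and 226 CPM with siHsp90aa1, against 969, 930 and 872 CPM with siHsp90ab1 and 934, 886 and 807 CPM with siCtr (-1.65 ± 0.19, adjusted p = 1.41e-05). Sel1l, the adaptor of the ER-associated degradation ligase, was the clearest of the higher, at 208, 212 and 214 CPM with siHsp90aa1, against 112, 109 and 115 CPM with siHsp90ab1 and 135, 139 and 155 CPM with siCtr (0.92 ± 0.09, adjusted p = 5.71e-06).

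**Figure D3:**
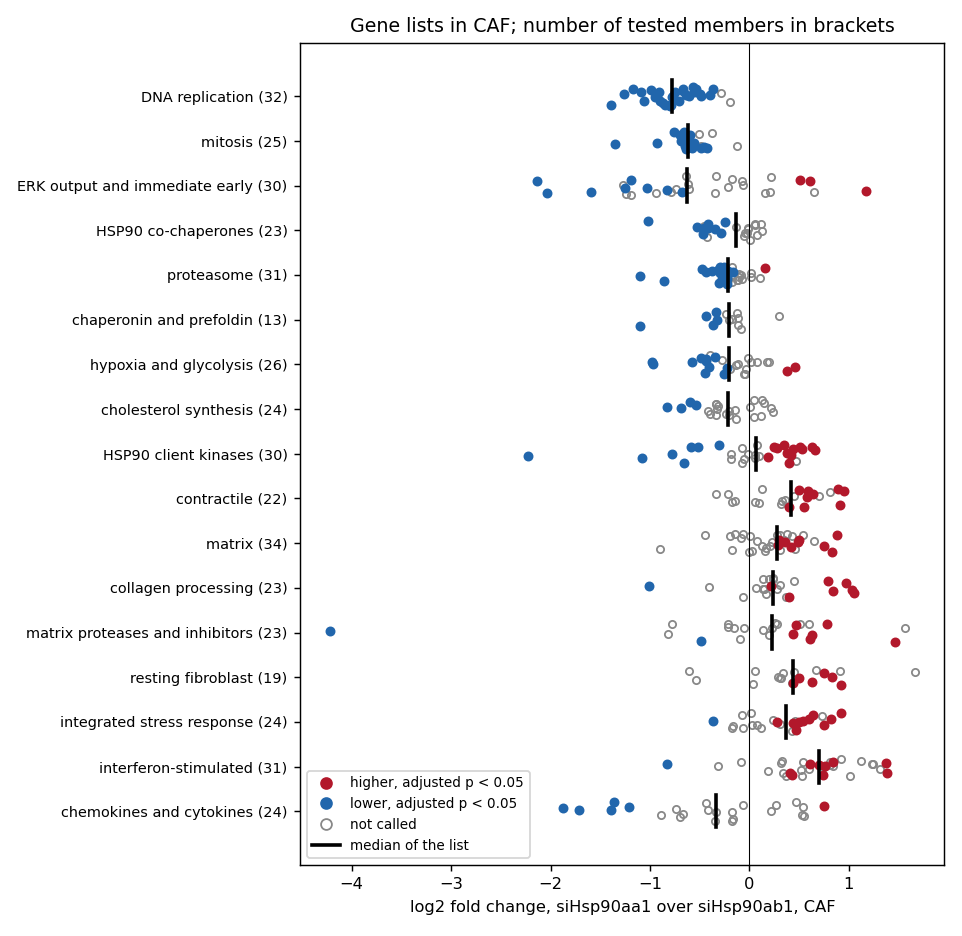
Log2 fold changes, siHsp90aa1 over siHsp90ab1 in CAF, of the tested members of 17 gene lists. Filled points were called (red higher, blue lower), open points were not, and black bars are list medians; replication and mitosis lie wholly below 0, with medians of -0.77 and -0.62, and contractile genes at a median of 0.42.

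Some genes of the contractile and matrix programme of fibroblasts were called higher with siHsp90aa1, and most were not called. Of 22 contractile genes 9 were called higher and 0 lower, with a median log2 fold change of 0.42, where 13.1% of all genes were called higher. With the replicate block 11 were called higher and 1 lower, where 18.3% and 17.3% of all genes were. Without the block the 9 higher calls were sensitive to single libraries. They became 3 without siHsp90aa1 library 1 and 5 without siHsp90ab1 library 3. They became 4 without siHsp90aa1 library 2, siHsp90ab1 library 1 or siHsp90ab1 library 2, and 6 without all CAF libraries numbered 3. Cnn1, calponin of smooth muscle, had 293, 304 and 274 CPM with siHsp90aa1, against 141, 150 and 173 CPM with siHsp90ab1 and 189, 178 and 166 CPM with siCtr. The siHsp90aa1 libraries lay above all others, and the other groups overlapped (0.91 ± 0.16, adjusted p = 0.000730). The actin nucleator Lmod1 (0.95 ± 0.19, adjusted p = 0.00162) and the tropomyosin Tpm1 (0.50 ± 0.11, adjusted p = 0.00273) kept their calls when any library was left out. Acta2, the smooth muscle actin by which myofibroblasts are defined and named here for that reason, had 3987, 3965 and 3414 CPM with siHsp90aa1, against 2366, 2466 and 2955 CPM with siHsp90ab1 and 2814, 2531 and 2306 CPM with siCtr. All siHsp90aa1 libraries lay above all siHsp90ab1 libraries, but the call was marginal (0.55 ± 0.20, adjusted p = 0.0485) and was lost without any library but siHsp90ab1 library 3 (adjusted p = 0.0697 to 0.167).

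Of 34 matrix genes 9 were called higher, against 13.1% of all genes, and 0 lower (median 0.28, with 7 negative log2 fold changes). There were 15 higher calls with the replicate block and 7 without the libraries numbered 3. The count was 3 without siHsp90ab1 library 1 or library 2, 4 without siHsp90aa1 library 1 and 5 without siHsp90aa1 library 3. Fn1, fibronectin, had 9523, 10104 and 10268 CPM with siHsp90aa1, against 6472, 7538 and 7275 CPM with siHsp90ab1 and 6353, 7083 and 7489 CPM with siCtr. All siHsp90aa1 libraries were higher than all others (0.49 ± 0.12, adjusted p = 0.00520). Col8a1, a short-chain collagen, was higher by 0.83 ± 0.18 (adjusted p = 0.00245) and Col5a2, a chain of the collagen that nucleates fibrils, by 0.50 ± 0.12 (adjusted p = 0.00666). The major fibrillar collagens were not called. Col1a1 had a log2 fold change of 0.38 (adjusted p = 0.0849), Col1a2 of 0.31 (adjusted p = 0.224) and Col3a1 of -0.09 (adjusted p = 0.863). For Col1a1 all siHsp90aa1 libraries lay above all siHsp90ab1 libraries, at 26650.8 to 29343.5 against 20185 to 24386.7 CPM. Col1a2 was likewise separate, as were 3468 of the 15230 genes with siHsp90aa1 higher, while Col3a1 overlapped.

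Of 23 enzymes and other proteins that process collagen, 7 were called higher and 1 lower (median 0.23), against 13.1% and 13.3% of all genes. The counts were 12 and 1 with the replicate block, 6 and 2 without the libraries numbered 3, and 4 higher without siHsp90ab1 library 1. Lox, the lysyl oxidase that cross-links collagen and elastin, had 2513, 2841 and 2900 CPM with siHsp90aa1, against 1337, 1478 and 1962 CPM with siHsp90ab1 and 1309, 1332 and 1704 CPM with siCtr. The siHsp90aa1 libraries were higher than all others (0.79 ± 0.14, adjusted p = 0.000525). Its relative Loxl4 (0.84 ± 0.13, adjusted p = 0.000243), the prolyl hydroxylase subunit P4ha3 (1.05 ± 0.18, adjusted p = 0.000485) and the transglutaminase Tgm2 (1.03 ± 0.20, adjusted p = 0.00126) were also higher.

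Among 23 matrix proteases and inhibitors, 6 were higher and 2 lower, against 13.1% and 13.3% of all genes. The 2 became 0 or 1 without siHsp90aa1 library 2 or 3 or siHsp90ab1 library 1 or 2. Timp3, an inhibitor of metalloproteases that binds to matrix, had 391, 445 and 636 CPM with siHsp90aa1, against 139, 149 and 245 CPM with siHsp90ab1 and 276, 323 and 421 CPM with siCtr. The knockdowns did not overlap, and siHsp90ab1 lay below every control (1.47 ± 0.22, adjusted p = 0.000135). The collagenase Mmp14 (0.44 ± 0.10, adjusted p = 0.00442), the stromelysin Mmp11 (0.63 ± 0.14, adjusted p = 0.00325) and the inhibitor Timp2 (0.47 ± 0.11, adjusted p = 0.00472) were higher with siHsp90aa1.

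TGFb pathway genes did not move in 1 direction in these cells, which received no TGFb1. Of 22 targets 2 were called higher and 4 lower, where 13.1% of all genes were called higher and 13.3% lower. The 4 became 1 or 2 without siHsp90aa1 library 2 or 3 or siHsp90ab1 library 1 or 2. Of 15 ligands, receptors and SMADs 4 were higher and 3 lower, and the 4 became 2 without siHsp90ab1 library 1 or 2 or siHsp90aa1 library 3. The co-receptor Tgfbr3 had 526, 496 and 405 CPM with siHsp90aa1, against 283, 252 and 236 CPM with siHsp90ab1 and 383, 393 and 357 CPM with siCtr (0.89 ± 0.11, adjusted p = 2.76e-05), whereas Tgfbr1, given above, was lower. The latency protein Ltbp2 (0.63 ± 0.09, adjusted p = 8.30e-05) and the repressor of SMADs Ski (0.49 ± 0.07, adjusted p = 6.52e-05) were higher, and Smad2 was lower (-0.26 ± 0.07, adjusted p = 0.00976). Of 18 YAP targets and cofactors 5 were called lower and 0 higher, among them the genes of the cofactors themselves, Yap1 (-0.64 ± 0.10, adjusted p = 0.000209) and Wwtr1 (-0.73 ± 0.13, adjusted p = 0.000600), and Ankrd1 (-1.70 ± 0.42, adjusted p = 0.00620). Among 20 integrin and focal adhesion genes the calls were near the share of all genes (13.1% higher and 13.3% lower): 3 were higher (0 without siHsp90ab1 library 1 and 1 without siHsp90aa1 library 3) and 3 lower (5 without siHsp90ab1 library 3), with the laminin receptor chain Itga6 (-1.32 ± 0.30, adjusted p = 0.00352) and the cross-linker Actn4 (-0.84 ± 0.15, adjusted p = 0.000796) among the lower.

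Among metabolic genes, glycolysis held more lower than higher calls. Of 26 hypoxia and glycolysis genes 11 were called lower and 2 higher (median -0.21), 8 and 1 without the libraries numbered 3, and 7 and 1 without siHsp90ab1 library 2 or siHsp90aa1 library 3. Eno1, enolase, had 641, 630 and 573 CPM with siHsp90aa1, against 944, 943 and 863 CPM with siHsp90ab1 and 903, 892 and 802 CPM with siCtr. The siHsp90aa1 libraries were lower than all others (-0.58 ± 0.07, adjusted p = 3.06e-05). Pyruvate kinase Pkm (-0.45 ± 0.08, adjusted p = 0.000463), phosphoglycerate mutase Pgam1 (-0.43 ± 0.08, adjusted p = 0.000931) and lactate dehydrogenase Ldha (-0.48 ± 0.10, adjusted p = 0.00143) were lower by like amounts. Of 24 cholesterol synthesis genes 4 were called lower and 0 higher (7 lower with the replicate block), near the 13.3% of all genes called lower. Among p53 targets 4 of 19 were higher and 4 lower, against 13.1% and 13.3% of all genes. The 4 lower became 2 without siHsp90aa1 library 2 or 3 or siHsp90ab1 library 1 or 2. Among the higher, the death receptor Fas had 7.38, 6.90 and 8.51 CPM with siHsp90aa1, against 3.43, 3.53 and 3.71 CPM with siHsp90ab1 (1.09 ± 0.15, adjusted p = 6.24e-05).

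Most chemokine and growth factor genes were not called. Of 24 chemokines and cytokines 5 were called lower and 1 higher (median -0.34, against 13.3% of all genes called lower and 13.1% higher), the higher call being lost without siHsp90ab1 library 1 or 2 or siHsp90aa1 library 3. Ccl2, which recruits monocytes, had 37.3, 31.9 and 21.9 CPM with siHsp90aa1, against 94.4, 71.5 and 68.7 CPM with siHsp90ab1 and 96.8, 74.9 and 67.0 CPM with siCtr. The knockdowns did not overlap, while siHsp90ab1 and control did (-1.36 ± 0.25, adjusted p = 0.000915). Its neighbour in function Ccl7 (-1.39 ± 0.25, adjusted p = 0.000625) and the alarmin Il33 (-1.21 ± 0.30, adjusted p = 0.00652) were lower too. Of 27 growth factors 3 were higher and 3 lower, no more than the share of all genes, and 1 of each without siHsp90ab1 library 1. Figf, the lymphatic growth factor VEGF-D, had 179, 187 and 193 CPM with siHsp90aa1, against 77.7, 72.8 and 126 CPM with siHsp90ab1 (1.01 ± 0.17, adjusted p = 0.000340), and its relative Vegfc was lower (-0.79 ± 0.15, adjusted p = 0.00115).

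Interferon-stimulated genes stood higher with siHsp90aa1, but most of them were not called. Of 31, 28 had a positive log2 fold change (median 0.70). The test called 9 higher and 1 lower, where 13.1% of all genes were called higher and 13.3% lower. It called 13 and 1 with the replicate block, and 11 and 1 without the libraries numbered 3. The 9 became 3 without siHsp90aa1 library 1 or siHsp90ab1 library 2 and 16 without siHsp90aa1 library 3. Irf9, a subunit of the interferon-activated factor ISGF3, had 27.5, 20.3 and 19.3 CPM with siHsp90aa1, against 15.5, 12.7 and 16.0 CPM with siHsp90ab1 and 19, 16.1 and 20.5 CPM with siCtr. The knockdowns did not overlap, and control overlapped siHsp90aa1 and lay above siHsp90ab1 (0.61 ± 0.12, adjusted p = 0.00125). Irf9 overlaps Rnf31 on the same strand, so its counts are uncertain. The member called lower was Trim25, the ubiquitin ligase that activates RIG-I (-0.83 ± 0.12, adjusted p = 0.000123).

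In the integrated stress response, ATF4 raises amino acid transport and synthesis when translation is held back. Of 24 of its genes 10 were called higher with siHsp90aa1 and 1 lower, where 13.1% of all genes were called higher. The median was 0.37, with 5 negative log2 fold changes. The replicate block gave 12 and 1, and leaving out the libraries numbered 3 gave 10 and 0. The 10 became 2 without siHsp90ab1 library 1 or siHsp90aa1 library 3 and 4 without siHsp90ab1 library 2. The 1 lower call was lost without siHsp90aa1 library 1 or siHsp90ab1 library 2. Slc3a2, the heavy chain of amino acid transporters, had 341, 326 and 372 CPM with siHsp90aa1, against 219, 230 and 266 CPM with siHsp90ab1 and 207, 194 and 231 CPM with siCtr. The siHsp90aa1 libraries were higher than all others (0.54 ± 0.09, adjusted p = 0.000371). Mthfd2, of mitochondrial folate metabolism, was higher by 0.47 ± 0.11 (adjusted p = 0.00390). The letters TGATGNAA of the composite element that ATF4 binds with a C/EBP partner occurred in 6 of 22 matched promoters (27.3%), against 3.54% of all promoters, over the same 250 bases and both strands. The stretch of Asns, asparagine synthetase, is printed with the match in capitals (RefSeq, GRCm38.p6).
Asns, chr6:7693210-7693289, minus strand: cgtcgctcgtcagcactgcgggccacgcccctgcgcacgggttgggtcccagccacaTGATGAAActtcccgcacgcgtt
Asns itself had 243, 264 and 290 CPM with siHsp90aa1, against 180, 214 and 247 CPM with siHsp90ab1 and 158, 181 and 211 CPM with siCtr, and was not called (0.31 ± 0.12, adjusted p = 0.0629, and 0.0204 without siHsp90ab1 library 3).

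Among called genes with at least 5 CPM in the higher group and no overlap, the largest differences were often in genes of modest level. Apart from Hsp90ab1, Dag1 and Timp3, the largest rises with siHsp90aa1 that kept their call without each library in turn were Tcp11l2 (2.08 ± 0.41, adjusted p = 0.00136), the sarcomeric M-band gene Myom1 (1.83 ± 0.24, adjusted p = 5.12e-05), the matrix proteoglycan Podn (1.68 ± 0.30, adjusted p = 0.000675), Lims2, a partner of integrin-linked kinase (1.61 ± 0.33, adjusted p = 0.00180), Pdk2, which inhibits pyruvate dehydrogenase (1.52 ± 0.31, adjusted p = 0.00163), Parm1 (1.47 ± 0.23), Col8a2 (1.47 ± 0.32) and Pyroxd2 (1.47 ± 0.34). The rises of Gm28035 (2.08 ± 0.60, adjusted p = 0.0160), the matrix protein gene Fbln7 (1.87 ± 0.58, adjusted p = 0.0229), Ifi205 (1.67 ± 0.45, adjusted p = 0.0108) and Zfr2 (1.61 ± 0.47, adjusted p = 0.0169) were each lost without siHsp90ab1 library 1, siHsp90ab1 library 2 or siHsp90aa1 library 3. Gm28035 overlaps Lrrc8a and Phyhd1 on the same strand, as Podn does Scp2, so their counts are uncertain.

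Of the largest falls, Acsbg1, which activates very long fatty acids, had 1.80, 0.989 and 0.477 CPM with siHsp90aa1, against 16.9, 10.1 and 4.97 CPM with siHsp90ab1 and 9.92, 4.58 and 1.76 CPM with siCtr. Every siHsp90aa1 library lay below every siHsp90ab1 library, and library 3 was lowest in each group (-3.22 ± 0.56, adjusted p = 0.000516). The focal adhesion gene Parvb had 11.9, 11.3 and 5.55 CPM with siHsp90aa1, against 68.2, 63.1 and 29.1 CPM with siHsp90ab1 (-2.47 ± 0.41, adjusted p = 0.000351). The lymphangiogenic factor Ccbe1 (-2.93 ± 0.65, adjusted p = 0.00316), the IL-18 receptor subunit Il18rap (-2.66 ± 0.52, adjusted p = 0.00136), the Notch regulator Dtx4 (-2.36 ± 0.25, adjusted p = 6.70e-06), Cd300lb (-2.33 ± 0.61), the adhesion molecule Alcam (-2.20 ± 0.56), the potassium channel Kcnk2 (-2.0 ± 0.38), adducin Add2 (-1.91 ± 0.42) and adenylate kinase Ak4 (-1.89 ± 0.24) followed. Hmga2, an architectural chromatin protein, was also lower (-2.28 ± 0.61, adjusted p = 0.0106), but not without siHsp90ab1 library 1 or siHsp90aa1 library 3.

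**Figure D4:**
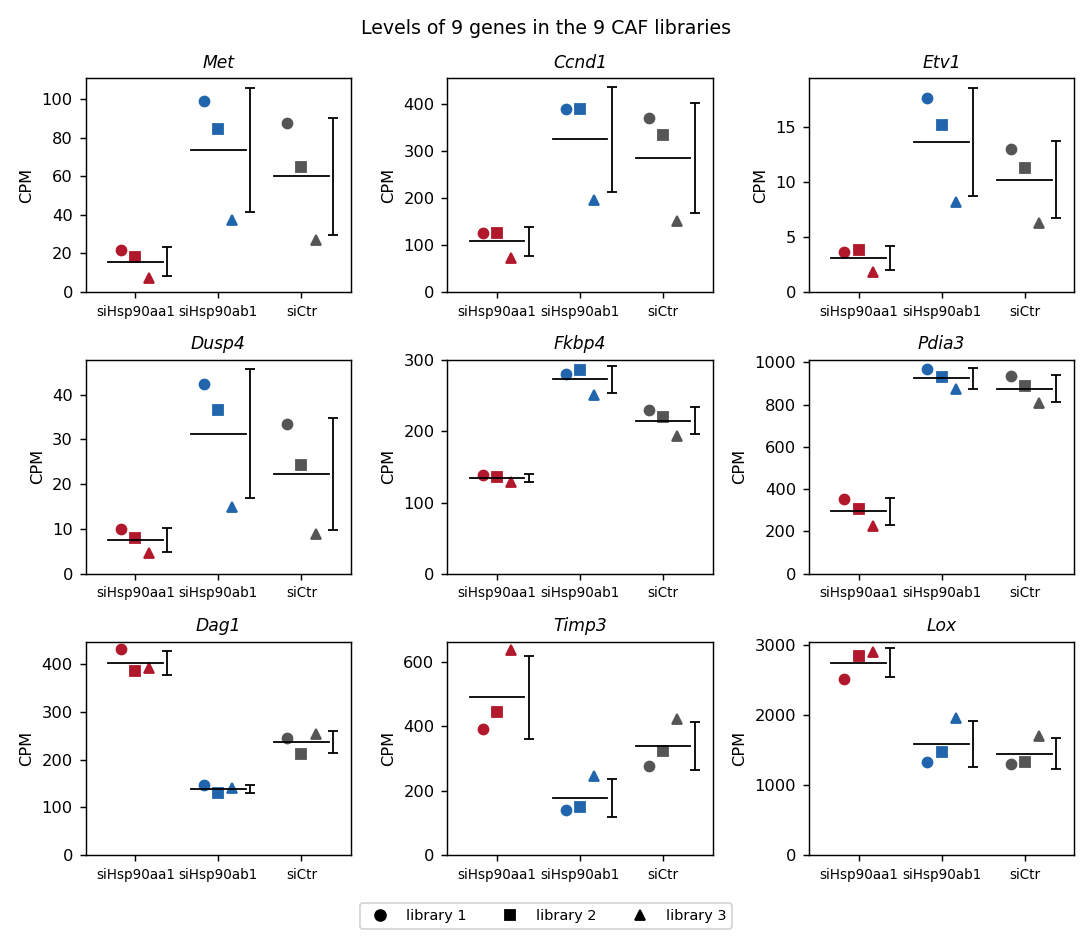
TMM-normalised CPM of 9 genes in the 9 CAF libraries, with circles, squares and triangles for libraries 1, 2 and 3, bars for means and error bars for SD (n = 3). By mean, Met, Ccnd1, Etv1, Dusp4, Fkbp4 and Pdia3 are lower with siHsp90aa1 than in both other groups, Dag1, Timp3 and Lox are higher, and library 3 is the lowest of its group for the first 4 genes.

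The same pair of siRNA pools in NF with TGFb1 was compared in libraries separate from those of CAF. In NF 5201 genes differed directly (34.1%), 2701 higher with siHsp90aa1 (17.7%) and 2500 lower (16.4%). Of the CAF calls, 2068 were called in NF with the same sign, 51.6% of the CAF and 39.8% of the NF calls, and 145 with the opposite sign. Across genes, which are not independent replicates, the log2 fold changes in CAF and NF correlated at r = 0.30 over all 15230 genes. The difference between CAF and NF was itself called for 1358 genes (8.92%), 573 more positive in CAF (3.76%) and 785 more negative (5.15%), and for 2438 with the replicate block, 1301 without the CAF libraries numbered 3 and 861 without NF siHsp90aa1 library 1.

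Several of the tightest CAF differences had nearly the same size in NF. Psmd2 differed by -1.11 in CAF and -1.06 in NF, Pdia3 by -1.65 and -1.44, Vbp1 by -1.10 and -0.93, Dag1 by 1.53 and 1.64, and Psmd6 by -0.86 and -0.85, and all 5 were called in both (adjusted p in NF from 2.87e-08 to 1.54e-05). Of the 23 co-chaperones 8 were lower and 1 higher in NF (0 without NF siHsp90ab1 library 1), and of the 31 proteasome subunits 18 lower and 0 higher. Among all genes in NF 16.4% were called lower and 17.7% higher.

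The proliferation genes did not show this. In NF 3 of the 32 replication genes were called lower and 1 higher (0 without NF siHsp90ab1 library 1), with a median of -0.09. Of the 25 mitotic genes 1 was called lower and 1 higher, with a median of -0.02. The shares of all genes in NF were 16.4% lower and 17.7% higher. The CAF minus NF difference was called negative for 13 replication genes (27 with the replicate block) and 9 mitotic genes (24 with the block), and positive for 0 of either, where 5.15% of all genes were called negative (8.83% with the block). These counts moved with single libraries. The 13 became 7 or 8 without CAF siHsp90aa1 library 3, CAF siHsp90ab1 library 1 or 2, NF siHsp90aa1 library 1 or 2 or NF siHsp90ab1 library 3, and 22 without CAF siHsp90ab1 library 3. The 9 became 16 without CAF siHsp90ab1 library 3, 14 without NF siHsp90aa1 library 3, and 3 or 4 without any other of the 12 libraries but CAF siHsp90aa1 library 1 and NF siHsp90ab1 library 1. Rfc5 averaged 17.2 CPM with siHsp90aa1 against 34.2 CPM with siHsp90ab1 in CAF, while its log2 fold change in NF was -0.11 (difference -0.88, adjusted p = 0.0121). Cdc20 differed by -0.65 in CAF and -0.02 in NF (difference -0.63, adjusted p = 0.00850), and Cdk4 by -0.51 and 0.01 (difference -0.52, adjusted p = 0.00242). Mcm3 (-1.39 in CAF, -0.86 in NF), Pcna (-1.09 and -0.64) and Birc5 (-1.35 and -0.80) were lower in both, and for them the difference between the lines was not called (adjusted p = 0.206 for Mcm3, 0.151 for Pcna and 0.234 for Birc5).

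The stress response and contractile lists had medians of opposite sign in CAF and NF, and the matrix list had a median near 0 in NF. Of all genes, 17.7% were called higher and 16.4% lower in NF. The CAF minus NF difference was called positive for 3.76% of all genes and negative for 5.15%. Of the integrated stress response genes 0 were higher and 14 lower in NF (median -0.44), and 13 had a positive CAF minus NF difference and 0 a negative one. Slc3a2 was higher by 0.54 in CAF and lower by -0.39 in NF (difference 0.93, adjusted p = 0.000242), and Mthfd2 by 0.47 and -0.44 (difference 0.91, adjusted p = 0.00124). Contractile genes had 1 higher and 4 lower in NF (median -0.11) and matrix genes 6 higher and 5 lower (median -0.01). The matrix counts and the lower contractile count were near the share of all genes. Single NF libraries moved these counts: the contractile 1 became 0 without siHsp90aa1 library 2 or 3 or siHsp90ab1 library 1 or 2, and the 4 became 2 without siHsp90aa1 library 1 or siHsp90ab1 library 2 or 3. The matrix 6 became 2 or 3 without siHsp90aa1 library 3 or siHsp90ab1 library 1 or 2, and the 5 became 1 or 2 without siHsp90aa1 library 1 or 2 or siHsp90ab1 library 1 or 3. Each list had 5 positive CAF minus NF differences and 0 negative ones. The 5 contractile ones became 1 to 3 without any of the 12 libraries but CAF siHsp90aa1 library 3, NF siHsp90aa1 library 3 and NF siHsp90ab1 library 1. The 5 matrix ones became 3 without CAF siHsp90aa1 library 2, CAF siHsp90ab1 library 1 or 2, NF siHsp90aa1 library 1 or 2 or NF siHsp90ab1 library 3, and without NF siHsp90aa1 library 3 a matrix gene had a negative difference. Lox differed by 0.79 in CAF and -0.17 in NF (difference 0.96, adjusted p = 0.00486), Fn1 by 0.49 and -0.32 (difference 0.81, adjusted p = 0.00528) and Timp3 by 1.47 and 0.09 (difference 1.37, adjusted p = 0.00771).

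Immune genes diverged between CAF and NF. Over all genes, 17.7% were called higher and 16.4% lower in NF, against 13.1% and 13.3% in CAF. The CAF minus NF difference was called positive for 3.76% of all genes and negative for 5.15%. In NF 29 of 31 interferon-stimulated genes were called higher with siHsp90aa1 and 0 lower (median 1.96), as were 12 of 13 genes of MHC class I presentation (median 1.45) and 13 of 13 interferon-induced GTPases of the GBP and IRG families (median 2.48). In CAF 1 gene was called higher and 1 lower in each of the MHC and GTPase lists, with 0 to 4 higher when single libraries were left out, and the difference was negative for 14 interferon-stimulated, 11 MHC and 6 GTPase genes and positive for 0. The 14 became 28 without CAF siHsp90aa1 library 1 and 8 or 9 without CAF siHsp90aa1 library 2 or CAF siHsp90ab1 library 1 or 3, and the 6 became 11 without CAF siHsp90aa1 library 1. Tap1, a peptide transporter subunit, differed by 0.57 in CAF (adjusted p = 0.0920) and 2.14 in NF (difference -1.56, adjusted p = 0.00789). Of the chemokines and cytokines 12 were higher and 2 lower in NF, and the 2 became 1 without NF siHsp90aa1 library 2 or 3 or NF siHsp90ab1 library 1 or 2. Ccl2 was lower by -1.36 in CAF and higher by 0.83 in NF (difference -2.19, adjusted p = 0.000931), and Ccl7 likewise by -1.39 and 1.03 (difference -2.42, adjusted p = 0.000401). Among the remaining lists, TGFb targets had 1 higher and 12 lower in NF (median -0.79, against -0.10 in CAF), with 4 positive differences, and the 1 higher became 0 or 2 without any NF library but siHsp90ab1 library 1 or 3.

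**Figure D5:**
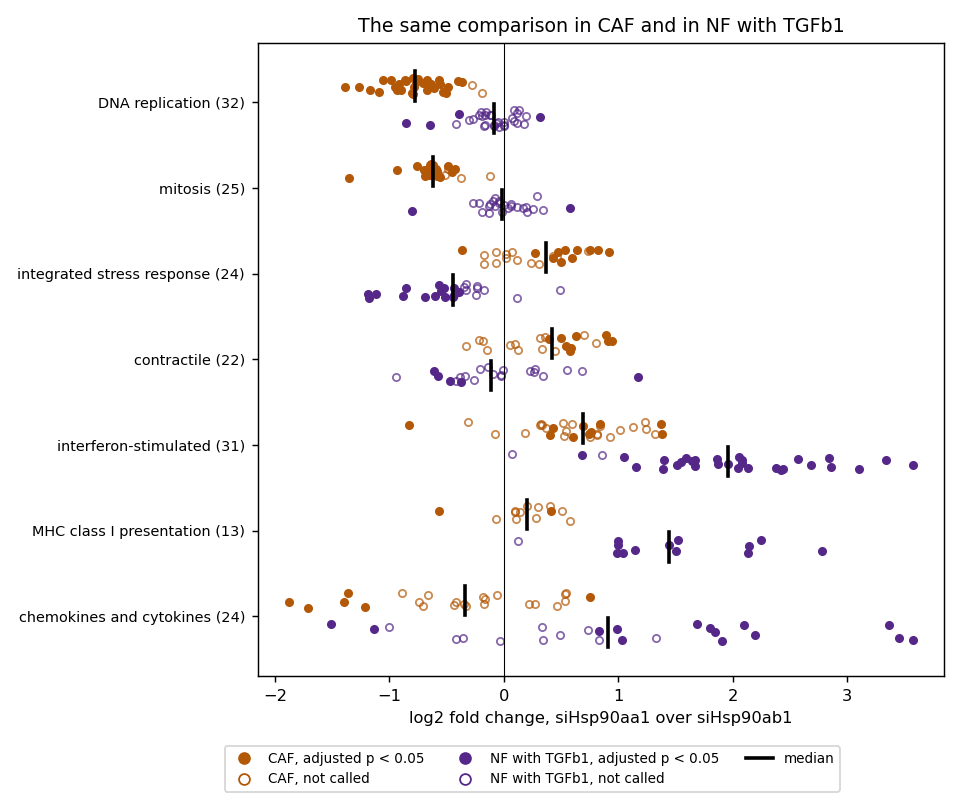
Log2 fold changes, siHsp90aa1 over siHsp90ab1, of the tested members of 7 gene lists in CAF (orange) and in NF with TGFb1 (purple); filled points were called and black bars are medians. Replication genes have a median of -0.77 in CAF and -0.09 in NF, integrated stress response genes 0.37 and -0.44, and interferon-stimulated genes 0.70 and 1.96.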

How the data were processed

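RNA was sequenced from 21 libraries, 3 in each of 7 groups, 48 h after transfection with DharmaFECT 1. Per the submitters' processing notes, reads were handled with STAR and Salmon on GRCm38, with no versions given. The authors deposited expected counts (estimated counts per gene, 10.9% of values not whole) and TPM per gene. TPM were used here only for the summed HSP90 level and an alternative for the targets. Expected counts were rounded to whole numbers and fitted in edgeR 4.0.16 (quasi-likelihood F test, TMM scaling, 1 coefficient per group, no block) over all 21 libraries. Genes passed filterByExpr with a minimum count of 10 and a minimum total of 15, which left 15230 of 45706. P-values were Benjamini-Hochberg adjusted over all tested genes within each comparison, and a gene was called at an adjusted p under 0.05. Fold changes are siHsp90aa1 over siHsp90ab1 unless stated, and SE is the fold change divided by the square root of F. DESeq2 1.42.0, other scaling, other filters, left-out libraries and a replicate block were alternatives. The fit was tested on simulated counts.

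The labels give each replicate number as a batch, and same-numbered CAF libraries deviated together from their group means (r of 0.625 to 0.913 in 9 pairs, against -0.851 to 0.317 in 18 other pairs, 10061 genes), so the numbers were taken to pair the samples.

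The gene lists, the comparison and its members were chosen with earlier results of these data known. The rule for naming took all 4 genes of the HSP90 family, the 15 strongest rises and the 15 strongest falls, the 5 strongest line differences in each direction and, from every list, its 4 lowest p-values. Genes outside this rule are given as list members or as chosen after their values were seen. Several named genes overlap small or predicted loci on their strand.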

Additional observations from a re-analysis of the deposited data

Results flagged for a closer look

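The log2 fold change of siHsp90aa1 over siHsp90ab1 differed between CAF with vehicle and NF with TGFb1 for 56 of the genes named in the text or leading a list, by a test of the difference itself in edgeR with Benjamini-Hochberg adjustment. Named genes numbered 168, and over all 15230 tested genes 8.92% were called for this difference. Some genes were named because this same difference was among the strongest, so their call was fixed by the choice. Others were named for strong differences or low p-values in CAF, an arm of this difference, which can enlarge it. The count of 56 therefore does not test how common such differences are. All 3 libraries of every group were used, and groups of this size were not screened for single outlying samples. Values are the CAF minus NF difference, followed in brackets by the log2 fold change in CAF and in NF. For 37 of the 56 the call was kept without each of the 12 libraries in turn. Line and cytokine cannot be told apart in any of them.

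Immune genes, which several of the chosen lists hold, made up most of the large negative differences among the named genes. The interferon-induced GTPase genes Gbp4 (-4.17, from -1.53 in CAF and 2.65 in NF) and Gvin1 (-3.71, from -0.16 and 3.56) had 2 of the most negative differences. Gbp4 stood at only 0.0254 to 0.225 CPM with siHsp90aa1 and 0.327 to 0.560 CPM with siHsp90ab1 in CAF, where it overlaps Gbp8 and Gbp9 on the same strand. Tnfsf10, the death ligand TRAIL, differed by -3.93 (-0.27 and 3.66) and the predicted gene Gm5431 by -3.94 (-0.14 and 3.80). Antigen presentation genes followed with Tap1 at -1.56 (0.57 and 2.14), H2-D1 at -0.71 (0.28 and 1.00) and the peptide trimmer Erap1 at -0.69 (-0.57 and 0.12). Trim25 differed by -0.90 (-0.83 and 0.07) and Ifi35 by -0.70 (0.70 and 1.39). The chemokine genes Ccl7 (-2.42, from -1.39 and 1.03) and Ccl2 (-2.19, from -1.36 and 0.83) and the alarmin gene Il33 (-2.04, from -1.21 and 0.83) had negative log2 fold changes in CAF and positive ones in NF. The adhesion molecule Vcam1 differed by -1.20 (0.30 and 1.5), C1ra by -1.21 (0.67 and 1.88) and C1s1 by -1.08 (0.65 and 1.73).

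Surface and growth factor genes of fibroblasts also had negative differences, with positive log2 fold changes in both settings that were smaller in CAF. They were Ggt5, a gamma-glutamyltransferase (-3.85, from 0.83 and 4.68), Ly6a (-2.84, from 0.63 and 3.48), Pdgfra (-0.99, from 0.44 and 1.43), Figf (-0.92, from 1.01 and 1.93) and Tgfbr3 (-0.79, from 0.89 and 1.68).

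Genes of the cell cycle and metabolism were lower in CAF and near 0 in NF for the most part. Rfc5 differed by -0.88 (-0.99 and -0.11), Ccna2 by -0.66 (-0.93 and -0.27), Cdc20 by -0.63 (-0.65 and -0.02), Cdk4 by -0.52 (-0.51 and 0.01) and Bub1b by -0.51 (-0.64 and -0.12). The glycolytic genes Ldha (-0.53, from -0.48 and 0.05), Pkm (-0.50, from -0.45 and 0.05) and Eno1 (-0.39, from -0.58 and -0.18) were of this kind. The fatty acid activator Acsl1 had log2 fold changes of opposite sign (-1.04, from -0.65 and 0.39). The p53 target Ei24 differed by -0.30 (-0.43 and -0.13) and Trap1 by -0.47 (0.14 and 0.60).

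Among the named genes, positive differences included matrix, contractile and stress response genes, kinds that several of the chosen lists hold. The lysosomal protease gene Ctsf was higher in CAF and lower in NF, at 8.0, 6.36 and 9.43 CPM with siHsp90aa1 against 3.65, 2.14 and 3.32 CPM with siHsp90ab1 in CAF (2.83, from 1.39 and -1.44). The CAF groups did not overlap. Matrix genes were Col8a1 (1.41, from 0.83 and -0.57), Timp3 (1.37, from 1.47 and 0.09), Fbn1 (1.22, from 0.88 and -0.34), Lox (0.96, from 0.79 and -0.17), Fn1 (0.81, from 0.49 and -0.32), Mmp11 (0.79, from 0.63 and -0.16), Col5a2 (0.72, from 0.50 and -0.22) and Ltbp2 (0.49, from 0.63 and 0.15). Contractile genes were Myom1 (1.51, from 1.83 and 0.32), Cnn1 (1.00, from 0.91 and -0.09) and Tpm1 (0.50, from 0.50 and -0.01). Amino acid and folate genes of the stress response were Slc7a5 (1.16, from 0.64 and -0.52), Slc3a2 (0.93, from 0.54 and -0.39) and Mthfd2 (0.91, from 0.47 and -0.44).

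Signalling genes with positive differences included the Notch ligand gene Jag1 (2.46, from 0.70 and -1.76), Igfbp5, which binds insulin-like growth factors (2.48, from 0.92 and -1.55), and Pdgfa (1.54, from -0.73 and -2.27). The others were Klf9 (0.82, from 0.40 and -0.42), Ski (0.65, from 0.49 and -0.16), Sel1l (0.59, from 0.92 and 0.33), Chuk (0.45, from 0.40 and -0.05) and Smad2 (0.32, from -0.26 and -0.58). The drug efflux pump gene Abcb1a (2.80, from 0.63 and -2.17) stood at 0.100 to 0.401 CPM with siHsp90aa1 and 0.117 to 0.252 CPM with siHsp90ab1 in CAF. The laminin chain gene Lamb3 (2.70, from 0.90 and -1.80) stood at 0.0502 to 0.144 and 0.0218 to 0.101 CPM, so that the direction in CAF rests on few counts for both.

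Leaving out 1 library ended the call of a difference for 19 genes. Their highest adjusted p was 0.341 for Lamb3, 0.201 for Tnfsf10, 0.136 for Smad2, 0.122 for Ifi35, 0.105 for Ccna2, 0.102 for C1s1 and 0.101 for Tpm1. It was 0.0990 for Gm5431, 0.0977 for Trap1, 0.0823 for Fbn1, 0.0808 for Ei24, 0.0761 for Bub1b, and 0.0609 for both Ltbp2 and Abcb1a. It was between 0.0507 and 0.0529 for Mmp11, Ldha, Figf, H2-D1 and Eno1.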

How the results depend on the processing

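Counts are given as all called genes, then higher and lower. With siHsp90aa1 against siHsp90ab1 in CAF, 4006 genes (1988 and 2018) became 7460 (3771 and 3689) with the groups compared alone and the replicate block, and 7878 (3875 and 4003) with the 9 CAF libraries and the block. Leaving out single libraries gave 2478 to 4285 (higher 1062 to 2034, lower 1356 to 2251). With siHsp90aa1 against siCtr, 3867 genes (1898 and 1969) became 6883 (3463 and 3420) and 7670 (3886 and 3784) in the same blocked fits, and 2460 to 4426 with single libraries left out (higher 979 to 2200, lower 1382 to 2226). With siHsp90ab1 against siCtr, 137 genes (71 and 66) became 5 (2 and 3) with the groups compared alone, 30 (15 and 15) without the CAF libraries numbered 3, 322 (173 and 149) in DESeq2 and 360 (196 and 164) with the replicate block. They became 3218 (1704 and 1514) with the groups compared alone and the block, 2156 (1173 and 983) with the 9 CAF libraries and the block, and 44 to 102 with single libraries left out (higher 19 to 61, lower 21 to 49). Without a filter on low counts 38 of these genes were higher. In NF the groups compared alone with the block gave 3861 lower genes, against 2500, and single libraries left out gave 3841 to 4700 of 5201 in all. The CAF minus NF difference, 1358 genes (573 and 785), became 2438 (1093 and 1345) with the block and 2974 (1196 and 1778) with only the groups compared and the block. Single libraries left out gave 861 to 1515 (higher 349 to 647, lower 502 to 868). The cause was not tested in any of these cases.

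Hsp90aa1 with its own pool was at 21.1% of its level with siHsp90ab1 (17.1% to 24.7% with single libraries left out), and Hsp90ab1 at 11.8% of its level with siHsp90aa1 (10.0% to 13.6%). Of 168 named genes 145 were called in the direct comparison, 109 of them kept the call under every alternative, and 0 changed sign. The calls lost were 17 with the groups compared alone, 6 without the libraries numbered 3, 2 without a filter, 1 in DESeq2 and 5 to 29 with single libraries left out. The replicate block ended 0 of the 145 calls and brought 10 of the other 23 genes past the threshold.

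The depth of 40899195 to 68737738 counts a library leaves genes such as Lamb3, at most 0.144 CPM in these libraries of CAF, with few counts. With 3 libraries a group and the libraries numbered 3 apart, a difference that was not called is not shown to be absent.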

Other observations

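Few genes of resting fibroblasts passed the test steadily. Of 19 tested in CAF, 17 had a positive log2 fold change, with a median of 0.44. The test called 6 higher and 0 lower, where 13.1% of all genes were called higher. The replicate block gave 9 higher and 1 lower. The 6 became 8 without all CAF libraries numbered 3, but 1 without siHsp90ab1 library 1 or siHsp90aa1 library 3 and 0 without siHsp90ab1 library 2. Cd248, the sialomucin endosialin, had 567, 561 and 670 CPM with siHsp90aa1, against 274, 299 and 435 CPM with siHsp90ab1 and 325, 357 and 490 CPM with siCtr. The siHsp90aa1 libraries lay above all others (0.83 ± 0.24, adjusted p = 0.0175), and the call was lost without those same 3 libraries (adjusted p = 0.0725 to 0.0909). Ly6a, which encodes Sca-1, had 161, 163 and 190 CPM with siHsp90aa1, against 94.1, 100 and 137 CPM with siHsp90ab1, and its call (adjusted p = 0.0164) was lost without the same libraries. Of 8 complement genes 2 were called higher and 0 lower. C1ra, a protease of the classical pathway, differed by 0.67 ± 0.17 (adjusted p = 0.00733) and kept its call without each library in turn.

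Of 15 antioxidant genes that NRF2 regulates, 3 were called lower with siHsp90aa1 and 0 higher, with a median of -0.22. Over all genes, 13.3% were called lower and 13.1% higher. Gsr, glutathione reductase, had 28.8, 27.5 and 28.3 CPM with siHsp90aa1, against 44.3, 42.0 and 37.0 CPM with siHsp90ab1 and 52.3, 53.7 and 49.6 CPM with siCtr. All 3 groups were separate, with siHsp90aa1 lowest (-0.54 ± 0.12, adjusted p = 0.00298). Gclm, a subunit of the enzyme that starts glutathione synthesis, was lower by -0.50 ± 0.12 (adjusted p = 0.00600). Of 12 adipogenic and lipid storage genes 4 were called lower and 2 higher. The 4 became 2 without siHsp90ab1 library 1, and the 2 became 0 or 1 without any library but siHsp90ab1 library 3. Acsl1, which activates long-chain fatty acids, had 14.1, 15 and 12.1 CPM with siHsp90aa1, against 19.8, 22.7 and 22.2 CPM with siHsp90ab1 (-0.65 ± 0.10, adjusted p = 0.000141). Of 11 targets of the glucocorticoid receptor, a client of HSP90, 1 was called higher and 0 lower, where 26.3% of all genes were called either way. The counts were 4 and 2 with the replicate block, 2 and 2 without all CAF libraries numbered 3, and 2 lower without siHsp90aa1 library 1 or siHsp90ab1 library 3. The called gene was the factor gene Klf9 at 0.40 ± 0.13 (adjusted p = 0.0295), a call lost without siHsp90aa1 library 1 or 2 or siHsp90ab1 library 2 or 3. Fkbp5, another such target, had a log2 fold change of -0.45 ± 0.17 (adjusted p = 0.0590, and 0.0251 with the replicate block).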
